A study of Mus musculus with 8 samples.

Results

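The data describe 9 genes of myoblast fusion and cell adhesion, called the members below, in RNA-seq of mouse skeletal myogenic cells before and after expansion in culture. They are Mymk (myomaker), Myof, Adam12, Cdh2, Ncam1, Cdon, Boc, Jam2 and Jam3, chosen by name for their known roles and, as the lists below, with earlier results of these data known. They are 9 of the 24980 gene symbols in the table, and all 9 passed the filter on low counts that left 17582 genes for testing. After expansion the RNA of 5 members (Mymk, Myof, Cdh2, Ncam1 and Cdon) was higher and that of 1 (Boc) lower, both in teratoma-derived progenitors and in satellite cells, 6 of 9 where 16.1% of all tested genes were called in the same direction in both. Mymk moved the most, 17.9-fold up in teratoma-derived cells and 212-fold up in satellite cells, and it went from the lowest member per kilobase of transcript in fresh satellite cells to the highest mean in both expanded groups. Before expansion the 2 cell sources differed in 4 members (24.2% of all genes), Mymk, Adam12, Cdh2 and Jam3, all higher in teratoma-derived cells.

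Skeletal muscle fibres form when mononucleated myoblasts withdraw from the cell cycle, adhere to one another and fuse. Adhesion is carried by cadherins, by immunoglobulin-superfamily proteins such as NCAM and the junctional adhesion molecules, and by the co-receptors CDON and BOC, which sit at cell contacts and pass on signals that promote differentiation. The merging of membranes depends on myomaker and on its small partner myomixer, while myoferlin, a calcium-binding ferlin, and ADAM12, a membrane metalloprotease, take part in fusion or in the steps before it. Satellite cells are the stem cells of adult muscle, and the fusion genes are known to come on as such cells leave rest and differentiate.

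The 8 libraries came from 4 groups of 2 biological replicates. Freshly isolated teratoma-derived cells (T_F) came from EGFP-labelled mouse E14 embryonic stem cells that had formed teratomas in irradiated, cardiotoxin-injured tibialis anterior muscle of NSG-mdx4Cv mice, an immunodeficient and dystrophin-deficient strain, and were sorted as EGFP+, CD31- and CD45-, α7-integrin+ and VCAM-1+. T_E cells were the same kind of cells after culture on gelatin in myogenic expansion medium to passage 8. S_F cells were freshly isolated endogenous satellite cells of adult mouse muscle, and S_E cells were satellite cells at passage 8 of the same culture. The strain and exact age of the satellite cell donors are not given in the sources used here. All teratoma-derived cells trace to 1 embryonic stem cell line, so that the line and the route through a teratoma cannot be told apart. Injury and strain of the host muscle come with that route as well, and comparisons of source cannot separate them either. Culture time and passage come together in both expanded groups.

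Library totals ran from 11931000 to 21146600 estimated counts, so that 1 count was worth 0.0471 to 0.0841 CPM (counts per 1000000 counts of the scaled library), the unit used below for every level. Of these totals, 7.99 to 21.3% lay on Rn45s, the ribosomal RNA precursor. The members together took 0.0791 to 0.123% of a library in the fresh groups and 0.247 to 0.286% in the expanded ones. The myogenic genes Pax7, Itga7 (α7-integrin) and Cdh15 were present in all 8 libraries. Pax7 was at 199 to 319 CPM in the fresh libraries and 78.2 to 115 in the expanded ones. Calcr, a receptor of resting satellite cells, stood at 34.6 to 84.3 CPM in the fresh libraries and had no count in the expanded ones, which allows up to 0.172 CPM. Of 8 myogenic markers, 2 were higher and 5 lower in T_E than in T_F, and 1 higher and 6 lower in S_E than in S_F. Their sum was 1157 to 1592 CPM in T_F, 3012 to 3562 in S_F and 1067 to 1142 in the expanded groups. Fresh libraries also held RNA of genes used as markers of other cell types, and bulk RNA does not show which cells it came from. The 8 fibro-adipogenic markers summed to 19203 to 19267 CPM in T_F, 2297 to 4051 in S_F and 601 to 923 in the expanded groups, and the 10 endothelial markers to 91.2 to 305, 318 to 409 and 2.70 to 5.77 CPM. Col3a1, a fibrillar collagen, made up most of the fibro-adipogenic sum, with 17302 and 17367 CPM in T_F, 1371 and 2508 in S_F and 592 to 916 in the expanded libraries, while Pdgfra went from 82.1 to 280 CPM in the fresh libraries to 0.208 to 2.64 in the expanded ones. Of the 8, 8 were lower in T_E than in T_F and 7 lower in S_E than in S_F, as were 9 of the 10 endothelial markers in each. In bulk RNA, fewer cells of a type and less RNA per cell cannot be told apart. Replicates of S_E stood furthest apart among the groups, with a chi-square of 87.2 per degree of freedom over genes, against 11.7 in T_E, 29.0 in T_F and 49.2 in S_F. The p-values rest on the spread between replicates, which the fit estimates for each gene over all 4 groups together and steadies across genes. With 2 libraries a group, they do not measure variation beyond these libraries. The 8 pericyte and smooth muscle markers summed to 478 and 1632 CPM in the S_E libraries, and to 1170 to 1625 CPM in the other groups, of which Acta2 alone was 1521 and 1507 CPM in T_E and 343 and 1456 in S_E. Of those 8 markers, 7 were lower in T_E than in T_F and 6 in S_E than in S_F. The summed level was 28.3 to 108 CPM for the 11 neural and Schwann markers, and 11.05 CPM or less for the pluripotency markers in every library.

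Groups were compared with edgeR's quasi-likelihood test, fitted on all 8 libraries and 17582 genes, and every adjusted p below is its Benjamini-Hochberg value. A gene was called where the adjusted p was under 0.05 and the difference was over 0.32 on the log2 scale in either direction. Over all 17582 genes, 9.86% were called higher and 16.2% lower in T_E against T_F. In S_E against S_F these shares were 20.9% and 19.8%. They were 15.1% and 9.13% in T_F against S_F, and 3.15% and 4.07% in T_E against S_E. The difference between both culture effects was called positive in 4.7% and negative in 9.62%. Counts of called genes in every list are to be read beside these shares. Differences are given on the log2 scale with their standard error (SE).

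Myomaker is the multipass membrane protein that muscle cells need for fusion. Mymk lies at chr2:27061636-27072179 on the minus strand (GRCm38) and its longest coding transcript has 5 exons. Its level was 0.872 and 1.48 CPM in the S_F libraries, which rests on 12 and 22 counts, and 18.7 and 18.3 CPM in T_F. In T_E it was 348 and 316 CPM, and in S_E 140 and 365 CPM. Both fresh groups lay below both expanded groups without overlap, T_F lay above S_F, and both T_E values fell between those of the S_E replicates. In T_E it was 17.9-fold higher than in T_F (log2 difference 4.16, SE 0.42, adjusted p = 0.000107). In S_E it was 212-fold higher than in S_F (log2 difference 7.73, SE 0.53, adjusted p = 7.47e-06), and 6.89 on the log2 scale without S_E replicate 2. Between fresh groups it was 15.5-fold higher in T_F (log2 difference 3.96, SE 0.49, adjusted p = 0.000648). Between expanded groups the log2 difference of T_E from S_E was 0.39 (SE 0.37, adjusted p = 0.633), which turned to -0.13 without S_E replicate 1 and became a call of 1.24 (adjusted p = 0.00465) without S_E replicate 2.

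On the log2 scale the culture effect on Mymk was larger in satellite cells than in teratoma-derived cells. The satellite cells started from the lower fresh level, 12 and 22 counts, and the expanded groups gave no call between them. The effect in T_E over T_F minus that in S_E over S_F was -3.56 (SE 0.61, adjusted p = 0.00498), and -2.72 without S_E replicate 2. In rank, Mymk stood above 13.0% of the tested genes in S_F, 59.5% in T_F, 97.2% in S_E and 98.1% in T_E.

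Myomixer (Mymx), the small protein that works with myomaker, had 1 count in S_F replicate 1 and none in replicate 2. Its level was 1.43 and 1.91 CPM in T_F, 25.8 and 29.5 CPM in T_E, and 11.7 and 20.4 CPM in S_E. Against a floor of 3 counts per library in S_F, it was at least 7.96-fold higher in T_F, at least 76.4-fold higher in S_E and at least 132-fold higher in T_E. The log2 difference of T_E from T_F was 4.04 (SE 0.53, adjusted p = 0.000485), close in size to that of Mymk. Where Mymx was above the floor, there were 9.58 to 18.0 counts of Mymk for each count of Mymx in the 6 libraries of T_F, T_E and S_E.

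**Figure D1:**
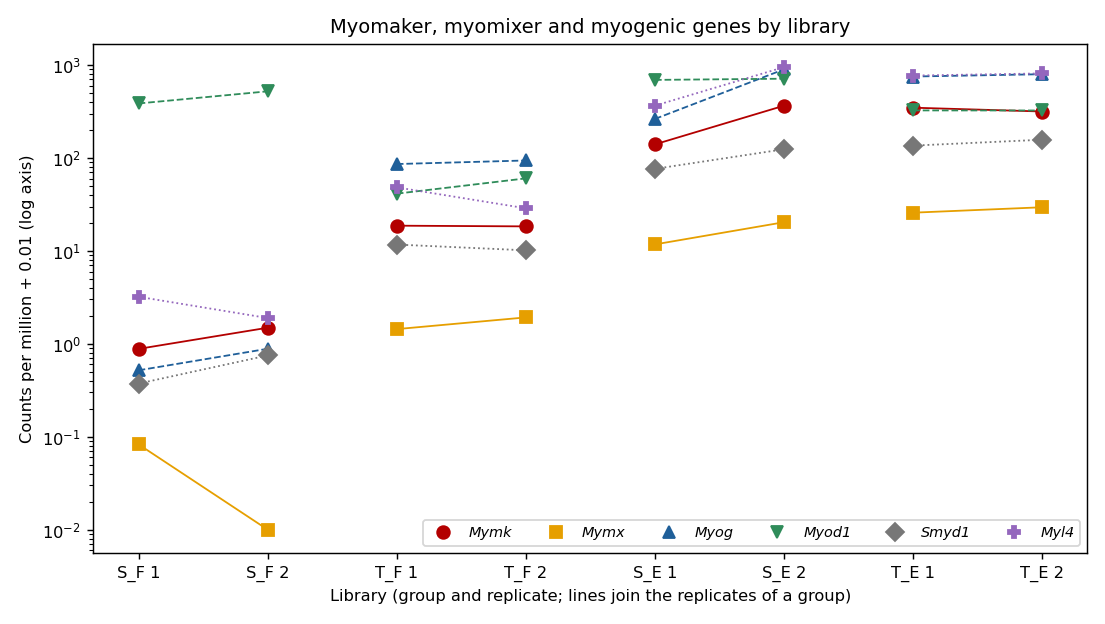
Levels of Mymk, Mymx, Myog, Myod1, Smyd1 and Myl4 in each of the 8 libraries, as CPM plus 0.01 on a log axis, with lines joining the replicates of a group. Mymk, Mymx, Myog, Smyd1 and Myl4 are lowest in both S_F libraries, intermediate in T_F and highest in the expanded libraries, while Myod1 is already at 386 and 522 CPM in S_F.

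The gene that starts terminal differentiation, Myog (myogenin), followed a like order, with 0.509 and 0.875 CPM in S_F, 86.0 and 94.0 in T_F, 753 and 797 in T_E, and 263 and 900 in S_E. Its S_E replicates were apart in the same direction as those of Mymk. Myod1, which commits cells to the muscle lineage, did not: it stood at 386 and 522 CPM in S_F but at 41.3 and 60.3 CPM in T_F, where it was lower (log2 difference -3.16, SE 0.25, adjusted p = 0.000111). Thus fresh teratoma-derived cells had less Myod1 and more Mymk and Myog than fresh satellite cells. Of 12679 genes averaging 50 or more normalized counts, the 3 whose centred log2(CPM + 1) profiles lay closest to that of Mymk over the 8 libraries were Smyd1, Myl4 and Lmod3, at root mean square differences of 0.37, 0.40 and 0.53. All 3 encode proteins of the contractile apparatus or of its assembly: a muscle methyltransferase, an embryonic myosin light chain and a leiomodin. Smyd1 was at 0.363 and 0.740 CPM in S_F, 11.7 and 10.1 in T_F, 136 and 157 in T_E, and 76.4 and 124 in S_E.

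Of 18 genes of muscle differentiation, 12 were higher and 2 lower in T_E than in T_F (9.86% and 16.2% of all genes). Their median log2 difference was 2.03 against -0.18 over all genes. From S_F to S_E, 12 were higher and 1 lower (20.9% and 19.8% of all genes), with a median of 3.97 against -0.23. In T_F against S_F 10 were higher and 2 lower (15.1% and 9.13% of all genes), with a median of 1.82 against 0.08. T_E and S_E differed in 1 higher and 1 lower (3.15% and 4.07% of all genes), with a median of -0.26. The culture effect differed between the sources in 9 of the 18 (14.3% of all genes). It was more positive in satellite cells in 8 of them (9.62% of all genes). Tnni1, the slow troponin I, rose by 4.87 from T_F to T_E and by 8.85 from S_F to S_E, and Myf5, an early myogenic factor, fell by 3.33 and fell by 3.86.

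Myoferlin (Myof) is a membrane protein that myoblasts use in the later rounds of fusion and in membrane repair. Its gene covers chr19:37899036-38043577 on the minus strand, with 53 exons in the longest coding transcript. Levels were 92.5 and 78.7 CPM in T_F and 361 and 374 CPM in T_E. In satellite cells they were 41.5 and 57.0 CPM fresh and 498 and 285 CPM expanded. Each expanded group lay above its fresh group, and the T_E values fell between those of the S_E replicates. The rise was 4.29-fold in teratoma-derived cells (log2 difference 2.10, SE 0.28, adjusted p = 0.000561) and 7.95-fold in satellite cells (2.99, SE 0.29, adjusted p = 5.32e-05). T_F exceeded S_F by 0.80 (SE 0.27, adjusted p = 0.0618), which was not called, although it was without S_F replicate 2 (adjusted p = 0.0402) and without either S_E library (adjusted p = 0.00952 and 0.00796), which also changed the number of genes tested to 19439 and 19443. T_E and S_E differed by -0.09 (SE 0.27, adjusted p = 0.944), or by 0.37 without S_E replicate 1. The difference between both culture effects, -0.89, had an adjusted p of 0.160, and 0.0119 without S_E replicate 2.

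Of the 9 members, 2 (Myof and Cdon) were matched to promoter windows in the RefSeq table for GRCm38.p6. The Myof window is shown because Myof rose in both sources and its start agrees to the base with the gene's annotated end on the minus strand. It is the 250 bases before the start, chr19:38043578-38043827, read on the minus strand, and the capitals mark a CCAAT motif read on the other strand, 64 bases before the start.
Myof: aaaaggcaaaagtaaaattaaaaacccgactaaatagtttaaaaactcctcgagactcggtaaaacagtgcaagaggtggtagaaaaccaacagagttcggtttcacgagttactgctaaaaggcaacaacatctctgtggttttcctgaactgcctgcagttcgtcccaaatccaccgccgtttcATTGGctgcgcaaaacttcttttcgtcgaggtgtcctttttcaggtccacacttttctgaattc

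Letters of the E-box (CANNTG), the TEAD site (CATTCC) and the CCAAT box (CCAAT) were searched on both strands of that window. Only the CCAAT box was found, and 33.8% of 32536 windows of the same length hold it, against 66.2% for CANNTG and 12.6% for CATTCC. These matches describe letters in this window and nothing about which factors act on Myof. The start site of the Cdon window lies 30948 bases inside the gene as GENCODE draws it, and that window is not shown.

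ADAM12 is a metalloprotease and adhesion protein of regenerating and developing muscle. Adam12, at chr7:133883199-134232146 on the minus strand, had 63.7 and 67.7 CPM in T_F and 34.6 and 33.7 CPM in T_E. Satellite cells had 12.5 and 11.3 CPM when fresh and 6.41 and 15.3 CPM when expanded. Both teratoma-derived groups lay above both satellite groups, and S_F and S_E overlapped. It was the 1 member called higher in teratoma-derived cells both before and after culture: 5.52-fold higher in T_F than in S_F (log2 difference 2.46, SE 0.37, adjusted p = 0.00180) and 3.16-fold higher in T_E than in S_E (1.66, SE 0.36, adjusted p = 0.0244). The second call was lost without T_E replicate 1 (adjusted p = 0.0696), without T_E replicate 2 (0.0628) and with only the 4 expanded libraries in the fit (0.0726), and without S_E replicate 2 the difference was 2.41.

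Culture did not give a call in Adam12 on either side. The log2 difference was -0.94 in teratoma-derived cells (SE 0.35, adjusted p = 0.0782), where the T_F and T_E values did not overlap, and the same difference was called without S_E replicate 1 (adjusted p = 0.00958), without S_E replicate 2 (0.00922), without a filter on low counts (0.0155) and with only the T_F and T_E libraries (0.00216). In satellite cells it was -0.14 (SE 0.36, adjusted p = 0.774), with 0.38 when S_E replicate 1 was left out and a call of -0.88 (adjusted p = 0.0474) when S_E replicate 2 was. The sign of that difference thus rested on which S_E library was kept.

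N-cadherin (Cdh2) is a calcium-dependent adhesion protein of myoblasts. Cdh2 spans chr18:16588877-16809246 on the minus strand. Levels were 63.8 and 91.5 CPM in T_F, 178 and 187 CPM in T_E, 23.9 and 17.0 CPM in S_F, and 399 and 354 CPM in S_E. No 2 groups overlapped, and the order was S_E, T_E, T_F and S_F. It rose 2.35-fold in teratoma-derived cells (log2 difference 1.23, SE 0.23, adjusted p = 0.00418) and 18.4-fold in satellite cells (4.21, SE 0.26, adjusted p = 5.44e-06). The difference between those effects was -2.97 (SE 0.34, adjusted p = 0.000690). T_F had 3.80-fold more than S_F (log2 difference 1.93, SE 0.24, adjusted p = 0.000724), and T_E had 2.06-fold less than S_E (-1.05, SE 0.23, adjusted p = 0.0256), so the order of the sources turned over with culture. The expanded difference was not called without T_E replicate 1 (adjusted p = 0.176), without T_E replicate 2 (0.142) or when tested against the minimum difference of 0.32 itself (0.0525).

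M-cadherin (Cdh15), the cadherin by which satellite cells are often recognised, is given for comparison. It was at 204 and 262 CPM in T_F, 446 and 448 in T_E, 111 and 150 in S_F, and 197 and 237 in S_E. It was higher in T_E than in T_F by 0.94 (SE 0.22, adjusted p = 0.0109), in S_E than in S_F by 0.73 (SE 0.22, adjusted p = 0.0221) and in T_E than in S_E by 1.04 (SE 0.22, adjusted p = 0.0192). The count of Cdh2 for each count of Cdh15 was 0.313 and 0.349 in T_F, 0.400 and 0.416 in T_E, 0.214 and 0.113 in S_F, and 2.02 and 1.49 in S_E, a ratio of counts not corrected for length and looked at after the levels were seen. In S_E alone the libraries had more counts of Cdh2 than of Cdh15.

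The other cadherins and catenins were mostly lower after culture in teratoma-derived cells. Of 16 tested in this list, 2 were higher and 10 lower in T_E than in T_F, where 9.86% and 16.2% of all genes were, with a median of -1.91 against -0.18 over all genes. The 2 that rose were Cdh15 and Ctnna1, the α-catenin that ties cadherins to actin (0.99, SE 0.18, adjusted p = 0.00293). Cdh11, a mesenchymal cadherin, was at 278 and 301 CPM in T_F and 55.7 and 54.1 in T_E (-2.40, adjusted p = 2.85e-05). Cdh5, the cadherin of endothelium, was at 109 and 23.0 CPM in T_F and at 0.303 and 0 in T_E. The endothelial and fibro-adipogenic markers moved with this list, 9 of 10 and 8 of 8 of them lower in T_E, and their part in the list's fall was not tested. In satellite cells 5 were higher and 4 lower of 16, where 20.9% and 19.8% of all genes were (median -0.39, all genes -0.23). In T_F against S_F 3 were higher (15.1% of all genes) and 1 lower (9.13%), with median 1.18 (all genes 0.08). In T_E against S_E 2 were higher (3.15% of all genes) and 1 lower (4.07%), with median -0.26. The culture effect differed in 4 (14.3% of all genes), with median -0.89 (all genes -0.18). In teratoma-derived cells 1 was more positive (4.7% of all genes) and 3 more negative (9.62%), among the latter Cdh11 (-2.95, adjusted p = 0.000224).

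NCAM (Ncam1) is an immunoglobulin-superfamily adhesion protein that appears on activated and fusing myogenic cells. Its gene lies at chr9:49502136-49798925 on the minus strand. Levels were 251 and 315 CPM in T_F, 597 and 617 in T_E, 345 and 348 in S_F, and 911 and 998 in S_E. No groups overlapped, and Ncam1 stood high in every group, with 97.5% of tested genes below it in T_F and 99.6% in S_E. It rose 2.15-fold in teratoma-derived cells (log2 difference 1.10, SE 0.19, adjusted p = 0.00257) and 2.75-fold in satellite cells (1.46, SE 0.19, adjusted p = 0.000304). These rises differed by -0.36 (SE 0.27, adjusted p = 0.426). The T_F minus S_F difference was -0.29 (SE 0.19, adjusted p = 0.299) and the T_E minus S_E difference was -0.65 (SE 0.19, adjusted p = 0.0736), neither of which was called by edgeR, while DESeq2 called both (adjusted p = 0.0201 and 0.000483). The second was also called without S_F replicate 2 (adjusted p = 0.0450).

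NCAM is modified by 2 polysialyltransferases, which make its sugar chains long and its binding weaker. St8sia2 was at 5.52 and 0.471 CPM in S_F and 129 and 153 CPM in S_E, a rise of 5.57 (SE 0.72, adjusted p = 0.000261), and at 23.6 and 23.3 CPM in T_F and 58.9 and 58.7 CPM in T_E (1.33, SE 0.58, adjusted p = 0.124). St8sia4 rose in both, by 2.48 (SE 0.63, adjusted p = 0.0173) and 3.88 (SE 0.66, adjusted p = 0.00141). A list of 22 genes held St8sia2, St8sia4 and Gfra1 beside NCAM relatives and other immunoglobulin-superfamily adhesion genes, and more were lower than higher. In T_E against T_F 1 was higher, St8sia4, and 10 were lower (median -1.45, all genes -0.18, with 9.86% of all genes higher and 16.2% lower). In S_E against S_F 5 were higher, St8sia2 and St8sia4 among them, and 14 lower (median -1.56, all genes -0.23, with 20.9% higher and 19.8% lower). Here too the endothelial and fibro-adipogenic markers fell alongside, and their part was not tested. Icam1, a ligand for leukocyte integrins, was at 185 and 102 CPM in T_F and 80.2 and 119 in S_F, and at 0.229 to 1.11 CPM in the expanded libraries. Vcam1, which encodes the surface protein used to sort the fresh teratoma-derived cells, was at 250 and 337 CPM in T_F and 39.1 and 40.4 in T_E (-2.88, adjusted p = 0.000100). It also fell in satellite cells, from 307 and 388 CPM in S_F to 118 and 69.1 in S_E (-1.90, adjusted p = 0.000567). These are RNA levels, and by flow cytometry the paper found most α7-integrin+ cells of the expanding teratoma-derived cultures still VCAM-1+. In T_F against S_F 4 of the 22 genes were higher (15.1% of all genes) and 2 lower (9.13%), with median -0.26 (all genes 0.08). In T_E against S_E 2 were higher (3.15% of all genes) and 3 lower (4.07%), with median -0.37. The culture effect differed in 2 upward (4.7% of all genes) and 4 downward (9.62%), with median -0.76 (all genes -0.18).

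JAM-B (Jam2) and JAM-C (Jam3) bind each other across cell contacts. Jam2, at chr16:84774123-84825928 on the plus strand, had 27.3 and 18.6 CPM in T_F, 53.3 and 49.0 in T_E, 26.1 and 38.5 in S_F, and 48.6 and 32.0 in S_E. T_E lay just above S_E, while S_E, S_F and T_F overlapped in a chain. The only call was in T_E over T_F, 2.23-fold (log2 difference 1.16, SE 0.31, adjusted p = 0.0216), lost without T_F replicate 2 (adjusted p = 0.127), T_E replicate 1 (0.0891) or T_E replicate 2 (0.0595). The other differences were 0.32 in satellite cells (adjusted p = 0.415), -0.49 in T_F against S_F (0.280) and 0.34 in T_E against S_E (0.608).

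Jam3, at chr9:27097384-27155421 on the minus strand, had 61.7 and 64.5 CPM in T_F, 86.0 and 95.3 in T_E, 37.0 and 24.1 in S_F, and 76.8 and 115 in S_E. S_F was lowest, T_F next, and the expanded groups overlapped above them. It rose 3.13-fold in satellite cells (log2 difference 1.65, SE 0.27, adjusted p = 0.00101). In teratoma-derived cells the difference was 0.52 (SE 0.26, adjusted p = 0.164), which was called (adjusted p = 0.0185) with only the T_F and T_E libraries in the fit. T_F was 2.07-fold above S_F (1.05, SE 0.26, adjusted p = 0.0185), a call lost without T_F replicate 2 (0.0651), without S_F replicate 2 (0.0763) and with only the fresh libraries (0.0534). T_E and S_E differed by -0.08 (adjusted p = 0.959). The culture effects differed by -1.13 (SE 0.37, adjusted p = 0.0714), which was called without S_F replicate 1 (0.0333), without S_E replicate 1 (0.0128) and with no filter on low counts (0.0110). So the culture call was in Jam2 for teratoma-derived cells and in Jam3 for satellite cells. The difference between culture effects was called in neither gene (adjusted p = 0.236 and 0.0714), apart from the alternatives given for Jam3.

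The 14 JAM partners and relatives, with tight-junction and polarity proteins among them, held 6 genes called lower in T_E than in T_F, with the other 8 not called (median -2.79, all genes -0.18). In S_E against S_F 1 was higher and 6 lower (median -2.39, all genes -0.23). Over all genes 9.86% were higher and 16.2% lower in the first, and 20.9% and 19.8% in the second. The endothelial and fibro-adipogenic markers fell alongside in both, and their part was not tested. F11r (JAM-A), the closest relative of the 2 members, was at 15.3 and 12.6 CPM in S_F and 0.471 and 1.31 in S_E (-3.97, SE 0.96, adjusted p = 0.00899), and at 20.0 and 7.18 CPM in T_F and 0.857 and 5.60 in T_E (-2.07, SE 0.87, adjusted p = 0.109). Cxadr, a related junctional receptor, was the 1 called higher in satellite cells (2.75, SE 0.41, adjusted p = 0.000666). It was also the 1 called in T_F over S_F (2.17, adjusted p = 0.00509), where 15.1% of all genes were higher. The list median there was 0.20 (all genes 0.08). In T_E against S_E edgeR called 0 of the 14 (4 at an unadjusted p under 0.05, and 3 called by DESeq2), with a median of 0. For the difference between culture effects it called 0 (3 at an unadjusted p under 0.05, and 2 by DESeq2), with a median of -0.08. Over all genes 7.21% were called in the first and 14.3% in the second.

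**Figure D2:**
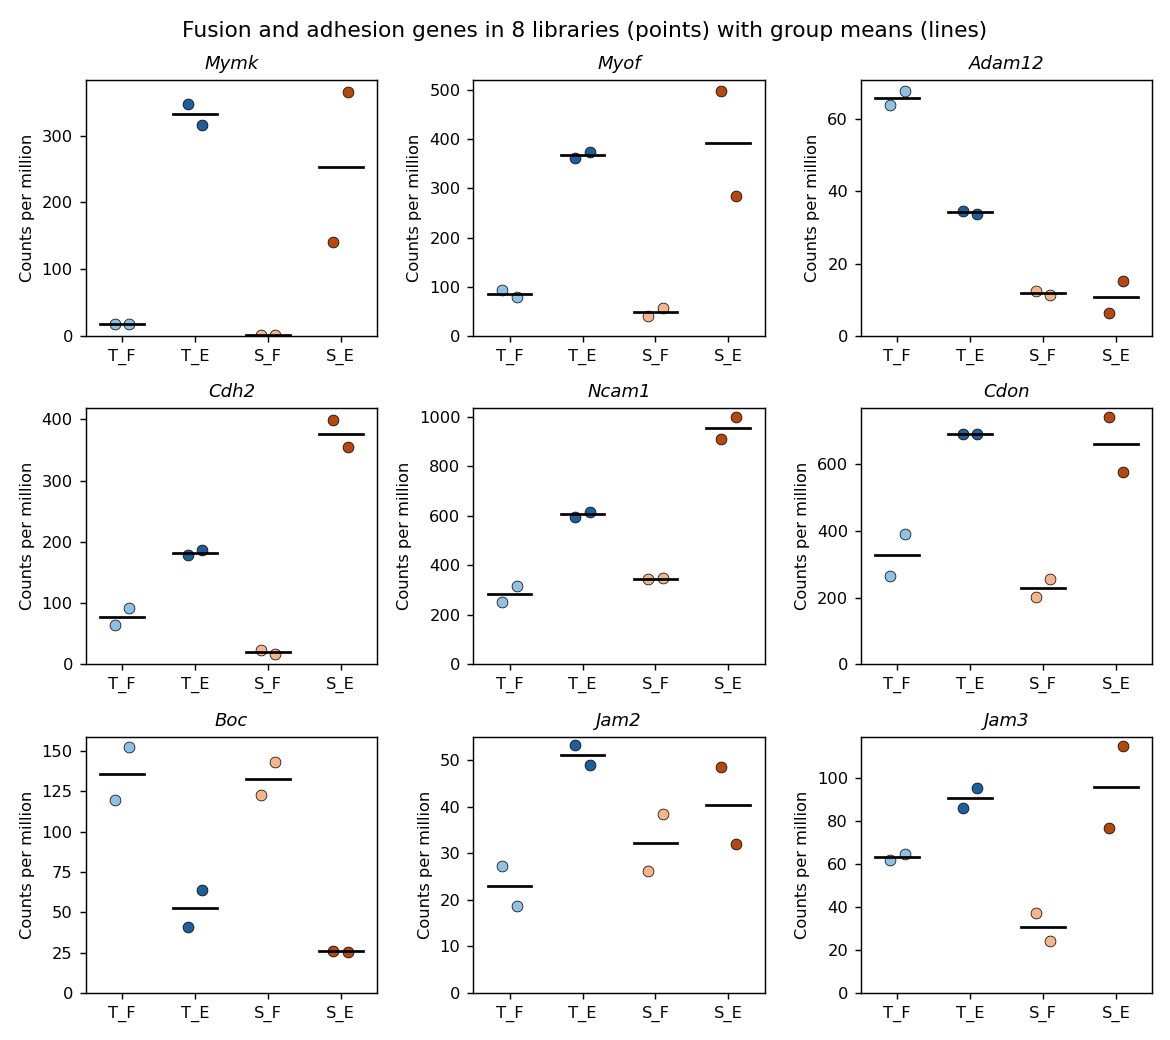
Levels of the 9 members in CPM, 1 panel a gene with its own axis from 0, with a point for each of the 2 libraries of T_F, T_E, S_F and S_E and a line at the group mean. Mymk, Myof, Cdh2, Ncam1 and Cdon are higher in the expanded groups, Boc is lower, and Adam12 is higher in the teratoma-derived groups.

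CDON and BOC are immunoglobulin-superfamily cell-surface proteins that bind each other and cadherins, promote myogenic differentiation, and also serve as co-receptors for Hedgehog ligands. Cdon, at chr9:35421128-35507652 on the plus strand, had 266 and 391 CPM in T_F, 691 and 692 in T_E, 201 and 257 in S_F, and 741 and 578 in S_E. Each expanded group lay above both fresh groups, and T_E and S_E overlapped. It rose 2.11-fold in teratoma-derived cells (log2 difference 1.08, SE 0.24, adjusted p = 0.00994) and 2.87-fold in satellite cells (1.52, SE 0.25, adjusted p = 0.000993). The first call was lost without T_F replicate 1 (0.85, adjusted p = 0.0967) and without T_E replicate 2 (adjusted p = 0.0502). T_F and S_F differed by 0.52 (SE 0.24, adjusted p = 0.151), and T_E and S_E by 0.07 (SE 0.24, adjusted p = 0.965).

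Boc, at chr16:44485049-44558897 on the minus strand, was the 1 member called lower after culture, and it was so in both sources. It was at 119 and 153 CPM in T_F and 123 and 143 CPM in S_F, which overlapped, at 40.9 and 64.1 CPM in T_E, and at 26.3 and 25.5 CPM in S_E. It was 2.59-fold lower in T_E than in T_F (log2 difference -1.37, SE 0.24, adjusted p = 0.00292) and 5.13-fold lower in S_E than in S_F (-2.36, SE 0.25, adjusted p = 9.2e-05). The fresh groups differed by 0.03 (SE 0.24, adjusted p = 0.941), and by -0.13 with median-ratio size factors. T_E kept more than S_E, 2.03-fold (1.02, SE 0.24, adjusted p = 0.0361), a call lost without T_E replicate 2 (0.66, adjusted p = 0.385), without S_E replicate 1 (0.0511), without S_E replicate 2 (0.0516), with only the expanded libraries (0.0780) and when tested against the minimum difference (0.0728). The difference between culture effects was 0.99 (SE 0.34, adjusted p = 0.0873).

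Because the partners went in opposite directions, the ratio of Cdon to Boc counts was taken after these values were seen, with no test. It was 2.22 and 2.56 in T_F and 1.64 and 1.80 in S_F, against 16.9 and 10.8 in T_E and 28.2 and 22.7 in S_E. Neogenin (Neo1), another receptor of this family, was at 140 and 164 CPM in T_F, 110 and 113 in T_E, 74.6 and 98.5 in S_F, and 83.1 and 79.8 in S_E. It gave no call with culture in either source (-0.45, adjusted p = 0.117, and -0.09, adjusted p = 0.734) and was higher in T_F than in S_F (0.81, SE 0.20, adjusted p = 0.0150).

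Gli1 and Ptch1, which rise when the Hedgehog pathway is active, fell in both sources. Gli1, a transcriptional target and effector of the pathway, was at 55.1 and 64.0 CPM in T_F and 29.4 and 31.9 in S_F, and at 0.114 to 0.801 CPM in the expanded libraries (-6.77, SE 0.65, adjusted p = 7.55e-05, and -5.98, SE 0.63, adjusted p = 8.63e-05). Ptch1, the Hedgehog receptor and itself a target, was at 114 and 127 CPM in T_F, 18.9 and 18.8 in T_E, 56.3 and 50.3 in S_F, and 21.8 and 16.9 in S_E. Its fall was larger in teratoma-derived cells (-2.67 against -1.46; difference -1.21, SE 0.29, adjusted p = 0.0233). Gas1, a further Hedgehog co-receptor beside CDON and BOC, fell from 186 and 195 to 58.8 and 53.6 CPM in teratoma-derived cells (-1.76, SE 0.18, adjusted p = 0.000103), and was at 154 and 166 CPM in S_F and 113 and 128 in S_E (-0.41, SE 0.17, adjusted p = 0.0821). The difference between those effects of -1.35 was called (SE 0.24, adjusted p = 0.00632). Gli2 also fell in both, with a difference of -1.87 in teratoma-derived cells (adjusted p = 0.00327) and -4.53 in satellite cells (adjusted p = 2.77e-05). It was at 19.8 CPM in both T_E libraries and at 3.49 and 1.37 CPM in S_E, a difference of 3.01 (SE 0.37, adjusted p = 0.00159).

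**Figure D3:**
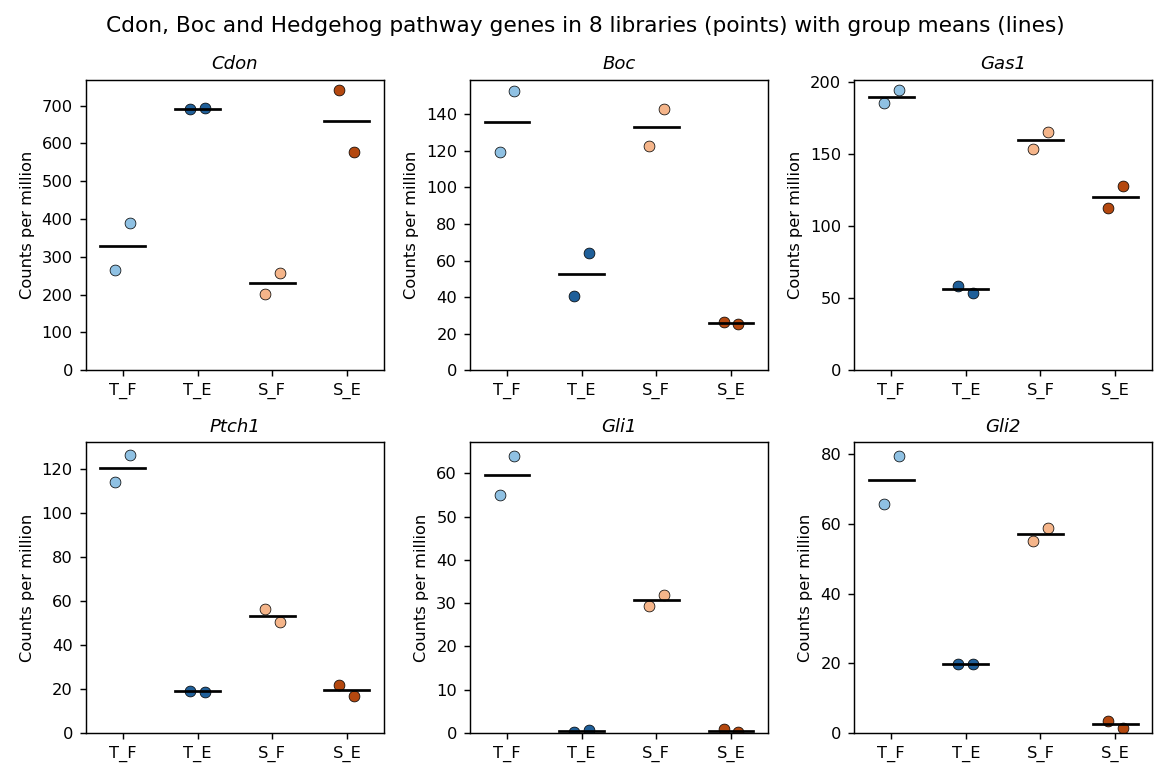
Levels of Cdon, Boc, Gas1, Ptch1, Gli1 and Gli2 in CPM, 1 panel a gene with its own axis from 0, with a point for each of the 2 libraries of T_F, T_E, S_F and S_E and a line at the group mean. Cdon is higher and Boc, Ptch1, Gli1 and Gli2 are lower in the expanded groups.

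The whole list of 22 CDON and BOC partners holds Hedgehog, netrin and myogenic signalling genes. Of these, 2 were higher and 10 lower in T_E than in T_F (median -1.99, all genes -0.18, with 9.86% of all genes higher and 16.2% lower). In S_E against S_F 4 were higher and 7 lower (median -1.44, all genes -0.23, with 20.9% of all genes higher and 19.8% lower). Among those that rose were Tcf3, a partner of MYOD1 on DNA, by 0.81 (adjusted p = 0.0311) and 1.95 (adjusted p = 0.000221), its relative Tcf12 by 1.48 in satellite cells (adjusted p = 0.000177), and Bnip2, a scaffold that binds CDON, by 0.76 (adjusted p = 0.0109) and 1.23 (adjusted p = 0.000497). The value of Tcf12 in teratoma-derived cells was 0.49 (adjusted p = 0.0680). Ntn1, a netrin, was at 128 and 123 CPM in T_F and 7.92 and 3.48 CPM in T_E (-4.46, adjusted p = 5.17e-05). In T_F against S_F 9 were higher (15.1% of all genes) and 1 lower (9.13%), with median 0.71 (all genes 0.08). Smo, the Hedgehog signal transducer, was up there by 2.13 (adjusted p = 0.00130). In T_E against S_E 1 was higher (3.15% of all genes) and 3 lower (4.07%), with median -0.23. The culture effect was more positive in teratoma-derived cells in 2 (4.7% of all genes) and more negative in 10 (9.62%). Its median was -1.18, against -0.18 over all genes. The fibro-adipogenic and endothelial sums given above fell with culture alongside Gli1, Ptch1 and Boc, and their part in these falls was not tested.

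Among 37 other genes of the fusion machinery, 6 were higher and 9 lower in T_E than in T_F (median -0.34, all genes -0.18), and 10 higher and 12 lower in S_E than in S_F (median 0.15, all genes -0.23). Over all genes 9.86% were higher and 16.2% lower in the first, and 20.9% and 19.8% in the second. Dysf, which encodes the ferlin dysferlin, was at 38.8 and 18.9 CPM in T_F and 203 and 195 in T_E (2.79, SE 0.43, adjusted p = 0.00126), and at 23.8 and 14 CPM in S_F and 51.1 and 103 in S_E (2.02, SE 0.42, adjusted p = 0.00404). Cav3, the muscle caveolin, rose in teratoma-derived cells (2.29, SE 0.71, adjusted p = 0.0396) and in satellite cells (4.87, SE 0.82, adjusted p = 0.00131), and these effects differed by -2.58 (adjusted p = 0.129). Nfatc2, a transcription factor that acts in myotube growth, was at 44.0 and 53.0 CPM in T_F and 138 and 129 in S_F and at 1.20 to 3.94 CPM in the expanded libraries. Ptgfrn, a tetraspanin partner, fell in teratoma-derived cells (-2.09, SE 0.24, adjusted p = 0.000230), and its culture effect differed from that in satellite cells by -2.32 (adjusted p = 0.00213). In T_F against S_F 9 of the list were higher (15.1% of all genes) and 5 lower (9.13%), with median 0.16 (all genes 0.08). In T_E against S_E 1 was higher (3.15% of all genes) and 4 lower (4.07%), with median -0.13. The culture effect differed in 1 upward (4.7% of all genes) and 6 downward (9.62%), with median -0.43 (all genes -0.18).

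Read across the 9 members, culture gave 7 calls in teratoma-derived cells, where 26.1% of all tested genes were called, with 6 of them higher (9.86% of all genes) and 1 lower (16.2%). The median log2 difference of the members was 1.10, against -0.18 over all genes. In satellite cells there were also 7 calls, against 40.7% of all genes, with 6 higher (20.9%) and 1 lower (19.8%), and a median of 1.52 against -0.23. These 2 comparisons share no library, but both come from 1 fit with a spread estimated over all 8 libraries, so their calls are not fully separate. Called in the same direction in both were 6 members, where 16.1% of all genes were: Mymk, Myof, Cdh2, Ncam1 and Cdon higher and Boc lower. The remaining members differed in which comparison passed, Jam2 in the first, Jam3 in the second and Adam12 in neither.

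**Figure D4:**
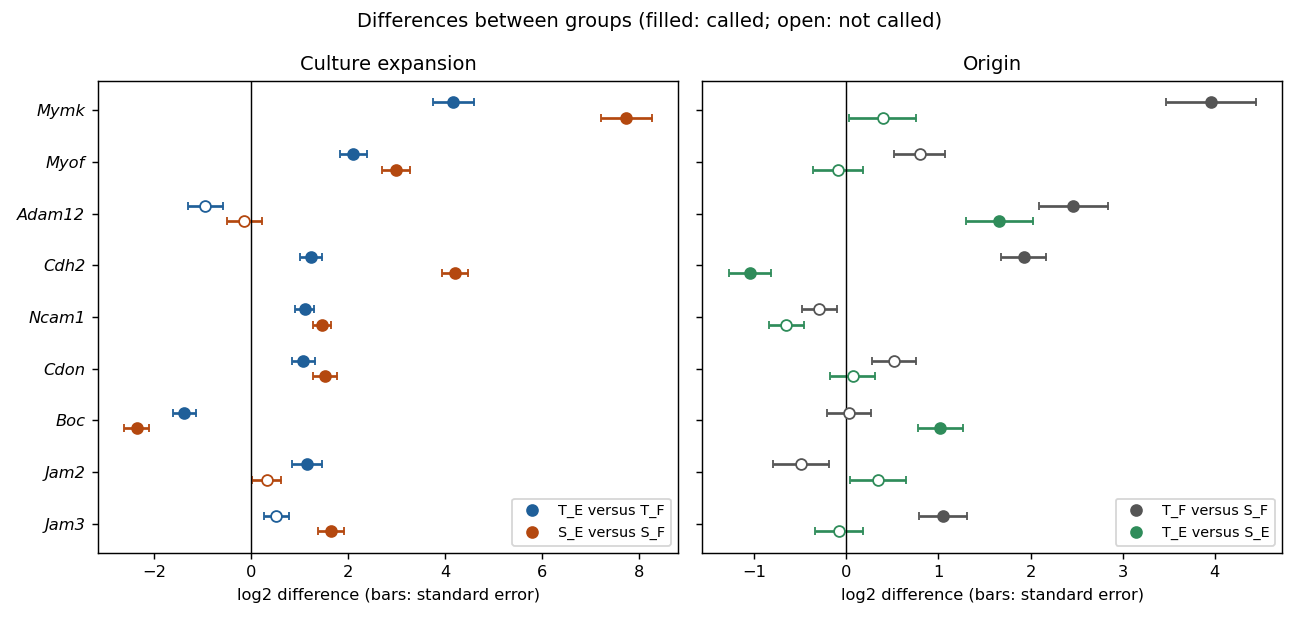
Log2 differences of the 9 members with bars of 1 standard error, for culture expansion (T_E against T_F and S_E against S_F, left) and for source (T_F against S_F and T_E against S_E, right), filled where called. The rises of Mymk and Cdh2 are larger in satellite cells, and Cdh2 is higher in T_F than in S_F but lower in T_E than in S_E.

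Between the fresh groups 4 members were called, Mymk, Adam12, Cdh2 and Jam3, where 24.2% of all genes were, with 4 higher in T_F (15.1%) and 0 lower (9.13%). The members with negative differences, Ncam1 and Jam2, had unadjusted p-values of 0.155 and 0.141, so 0 were under 0.05, and DESeq2 called 1 of them, Ncam1. The median was 0.80 against 0.08 over all genes. The T_F libraries had the highest fibro-adipogenic sum, with 4 of its 8 markers higher than in S_F, and T_F replicate 1 had a haematopoietic sum (8 markers) of 431 CPM against 38.5 in replicate 2 and 2.65 to 27.1 in the other groups. The part of either in the 4 calls was not tested. All 4 were called without T_F replicate 1, and 3 without T_F replicate 2, where Jam3 was lost (adjusted p = 0.0651), as it was without S_F replicate 2 (0.0763).

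Between the expanded groups 3 members were called, where 7.21% of all genes were: Adam12 and Boc higher in T_E (3.15%) and Cdh2 lower (4.07%). Their median was 0.07 against -0.0034 over all genes. Without T_E replicate 1 only Boc was still called, and without T_E replicate 2 the count was 0. The difference between both culture effects was called in 2 members, Mymk and Cdh2, where 14.3% of all genes were called, 2 negative (9.62%) and 0 positive (4.7%), with a median of -0.81 against -0.18. The positive differences were those of Boc and Jam2, at unadjusted p-values of 0.0170 and 0.0823, and DESeq2 called the first. The count rose to 4 calls without S_E replicate 1 and to 5 without the filter on low counts. This comparison uses all 8 libraries, and each comparison of sources shares its libraries with a comparison of culture, so their calls are not separate evidence.

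Divided by the length of the longest coding transcript, levels can be set beside each other between genes. In S_F the order ran from Ncam1 at 57.3 ± 0.417 CPM per kilobase (SD, n = 2) through Cdon at 30.6 ± 5.28 and Boc at 29.9 ± 3.18, which did not differ beyond their spread, down to Adam12 at 1.55 ± 0.110 and Mymk at 0.851 ± 0.311. In T_F it ran from Ncam1 at 46.8 ± 7.54 and Cdon at 43.7 ± 11.8, within each other's spread, to Jam2 at 5.25 ± 1.41, with Mymk at 13.4 ± 0.164. In T_E Mymk led at 240 ± 16.0, followed by Ncam1 at 100.3 ± 2.33, Cdon at 92.2 ± 0.172 and Myof at 51.8 ± 1.29. In S_E Mymk was at 183 ± 115 and Ncam1 at 158 ± 10.1, which did not differ beyond their spread, and Adam12 was last at 1.41 ± 0.816. Boc stood at 30.6 ± 5.26 in T_F and 11.8 ± 3.70 in T_E, and at 5.82 ± 0.128 in S_E. Lengths are those of 1 transcript a gene, and a gene read through a shorter transcript would stand higher than given.

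**Figure D5:**
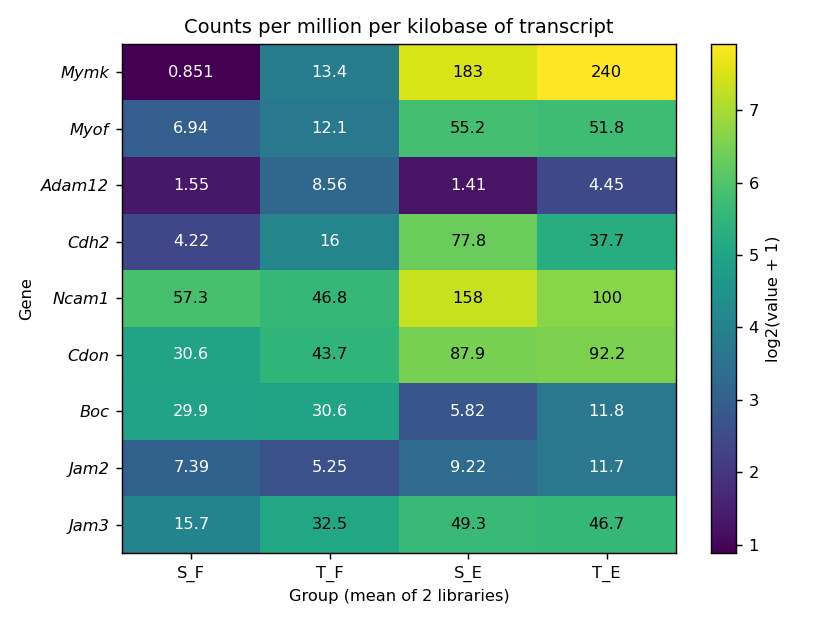
Mean level of each of the 9 members in each group, as CPM per kilobase of the longest coding transcript (number in each cell, 2 libraries a group), coloured by log2(value + 1). Mymk goes from 0.851 in S_F to 183 in S_E and from 13.4 in T_F to 240 in T_E, and Ncam1 is the first or the second member in every group.

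Some counts carry an uncertainty of their own. The annotation places a gene on the opposite strand over part of the span of Ncam1, Cdh2, Jam3 and Cdon. Spans include introns, and whether the transcripts themselves overlap was not looked at. How strand was used in the counting is not given in the sources used here, so whether reads were shared was not settled. Genes annotated on the same strand overlap the spans of Adam12 (A130023I24Rik, Gm19514 and Gm23631), Boc (Mir3081), Jam2 (Gm25908) and Cdon (Gm25630). A strand setting would not separate these where transcripts overlap. Counts with decimals, which can arise where reads are shared between transcripts of several genes, were found in Ncam1, Cdh2 and Jam2. No decimals were seen for the other members.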

How the data were processed

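Total RNA was measured by stranded RNA-seq in 8 libraries, 2 biological replicates of each of T_F, T_E, S_F and S_E, and grouped by the sample titles. The authors deposited 1 table of estimated counts per gene symbol. The submitters' processing notes name CASAVA, kallisto 0.44.0 and the builds GRCm38 and mm10; the annotation and the strand setting are not given in the sources used here. From 74.4 to 84.4% of each library's values were whole numbers, and values were rounded before testing. No per-sample column was left unmapped (0). Nothing in the sources used here marks a batch.

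Genes were filtered with filterByExpr, scaled by TMM factors and fitted with 1 mean per group in edgeR 4.0.16 (R 4.3.3), by the quasi-likelihood test with Benjamini-Hochberg adjustment over 17582 genes. There were 5 comparisons: T_E with T_F, S_E with S_F, T_F with S_F, T_E with S_E, and the difference between the first pair of effects. SEs are the log2 difference divided by the square root of F. CPM used the effective library size, so the floor of 3 counts was 0.141 to 0.252 CPM, and it covers counting error only. Levels per kilobase used the longest coding transcript of GENCODE M21 basic (GRCm38), from which the coordinates also come. Replicates differed by more than sampling noise in each group. The scripts were tested on simulated data.

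Alternatives were DESeq2 1.42.0 on the same genes, its median-ratio size factors, no filter, only the groups compared, edgeR's glmTreat against the minimum difference, a replicate block, and each library left out in turn. All 9 members are described. From each other list up to 2 called genes in each direction and comparison with the smallest adjusted p could be named, together with Mymx, Cdh15, F11r, Neo1, Gas1, Ptch1, Gli1, Myod1, Myog and Dysf, and the 3 genes most like Mymk. The members and lists were chosen with earlier results of these data known.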

Additional observations from a re-analysis of the deposited data

Results flagged for a closer look

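In 2 members the culture effect differed between the cell sources by a test of the difference itself (edgeR's quasi-likelihood test, Benjamini-Hochberg adjustment). Over all tested genes 14.3% were called in that test, and 9.62% were called negative, as both members were. Whether members were called more often than other genes was not tested. For Mymk, the effect in T_E over T_F minus that in S_E over S_F was -3.56 (SE 0.61, adjusted p = 0.00498). Its mean was 1.18 ± 0.430 CPM in S_F, 253 ± 159 in S_E, 18.5 ± 0.227 in T_F and 332 ± 22.2 in T_E (SD, n = 2 each). For Cdh2, it was -2.97 (SE 0.34, adjusted p = 0.000690), with means of 20.4 ± 4.92 CPM in S_F, 377 ± 31.8 in S_E, 77.7 ± 19.6 in T_F and 183 ± 5.83 in T_E (SD, n = 2 each). In both genes the expanded level rose in both sources, and every library left out in turn kept the call, with the difference between -4.09 and -2.72 for Mymk and between -3.22 and -2.68 for Cdh2. Each group has 2 libraries, too few for a check for outlying libraries.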

How the results depend on the processing

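Over 621 alternative values of the members' differences, 569 kept both direction and call, 19 lost the call, 22 gained it and 11 changed sign, none of these 11 from a called value. For Boc in T_F against S_F (0.03), the value was -0.13 with median-ratio size factors, -0.13 with DESeq2, -0.047 with only the groups compared, and -0.16 (without T_F replicate 2) to 0.20 with libraries left out, with -0.09 without S_F replicate 1. In T_E against S_E with libraries left out, Cdon ran from -0.10 (without S_E replicate 2) to 0.27, Jam3 from -0.33 to 0.24 (without S_E replicate 2; 0.0064 without T_E replicate 1), Mymk from -0.13 (without S_E replicate 1) to 1.24, and Myof from -0.44 to 0.37 (without S_E replicate 1). Adam12 in S_E against S_F ran from -0.88 to 0.38 (without S_E replicate 1). Leaving out each library gave 5 to 8 members called in T_E against T_F, 7 to 8 in S_E against S_F, 3 to 5 in T_F against S_F, 0 to 4 in T_E against S_E and 2 to 4 for the difference of culture effects. In T_E against S_E, 1 member was called with only the groups compared and 1 against the minimum difference, in place of 3. The difference of culture effects gave 5 calls without a filter, in place of 2. Nothing in the sources used here pairs same-numbered replicates. Differences between replicates 1 and 2 did not go together between groups (r from -0.035 to 0.028 over 12680 genes). That cannot exclude a shared origin, since culture could alter such differences. A fit with the replicate block gave 7, 7, 4, 3 and 2 calls and changed no call. DESeq2 gave 7, 7, 5, 4 and 3. With median-ratio size factors the all-gene median shifted by -0.19 in S_E against S_F, -0.16 in T_F against S_F and 0.14 in the difference of culture effects, and the share of all calls that were higher from 62.3 to 52.1% in T_F against S_F, from 51.4 to 43.6% in S_E against S_F and from 32.8 to 42.1% in the last. The cause of these changes was not tested beyond the fewer libraries or genes each setting uses. Depth limits Mymk in S_F, which rests on 12 and 22 counts, and Mymx there, at or under 1.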
